A study of Mus musculus with 12 samples.

Results

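Zbtb16, the mouse gene for the transcription factor PLZF, was followed across all 12 Affymetrix whole-transcript arrays of the series. It was identified by its symbol in the platform's probe annotation: 1 probe set of 41345 (17526707, gene ID 235320) carried Zbtb16, 1 of 22180 named genes, as its gene symbol, and 0 probe sets with several symbols listed it. The arrays form 5 groups by strain and labelled cell type, with 3 arrays each of ROR- and iNKT17 cells from BALB/c mice, and 2 arrays each of ROR-, iNKT17 and gamma-delta 17 cells from B6 mice. The labels name no transgene, deletion, treatment, age or organ for any group. They do not say how the cells were separated, or whether the arrays of a group stand for different mice. The p-values therefore reflect the scatter among these arrays, which could be technical. In the protocol the RNA source is described as frozen tissue, whereas the sample names describe cells. The series' stated subject is the difference in transcription between iNKT cells of B6 and BALB/c mice.

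Invariant natural killer T (iNKT) cells recognise lipids on the CD1d molecule through a T cell receptor of limited variety, and those of the iNKT17 subset secrete interleukin 17. PLZF is the factor that gives these cells their innate-like, memory-like state during development. It carries a BTB domain, through which it pairs with itself and recruits corepressors and the ubiquitin ligase scaffold Cul3, and a row of zinc fingers that bind DNA. Its gene is induced in iNKT precursors after strong receptor signals by early growth response factors such as Egr2. Mature iNKT subsets are known to hold different amounts of the protein, with iNKT17 cells between the high interleukin 4 producers and the low interferon producers. Some gamma-delta T cells that make interleukin 17 also use it.

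The labels were checked against marker genes, on the log2 scale of the deposited levels. The mean of the 4 T cell markers measured (Cd3d, Cd3e, Cd3g and Zap70) lay between 10.46 and 10.97 log2 units on every array. The mean of 4 type 17 genes (Il23r, Il17a, Il1r1 and Ccr6) lay between 7.68 and 9.41 on the iNKT17 and gamma-delta 17 arrays and between 3.72 and 5.51 on the ROR- arrays. B6 gamma-delta 17 replicate 1 stood apart: the mean of 8 neutrophil markers was 5.85 there, against 3.30 on replicate 2 and 3.28 to 3.48 on the 10 arrays of the other groups. Of those 8 markers 6 were highest on that array; S100a9 read 9.0 there and at most 3.98 elsewhere. Its mean of 8 conventional NK and CD8 markers was 6.75, against 5.40 on replicate 2 and at most 6.37 on the other groups' arrays. Only 2 of these 8, Cd8a and Cd8b1, were highest on that array, while the NK genes Ncr1 and Eomes were not raised. Its mean of 5 gamma-delta markers was 8.14, against 9.39 on replicate 2. Its mean of 9 immature thymocyte markers was 5.64, against 4.17 on replicate 2 and at most 5.37 on the other groups' arrays. Dntt read 5.52 there and at most 3.64 elsewhere. Only 4 of these 9 were highest on that array, among them Cd8a and Cd8b1, which the CD8 list also holds, while Rag2 and Cd4 were not raised. Its mean of 9 myeloid and dendritic markers was 4.39, against at most 3.93 on the other 11 arrays. Of these 9, 5 were highest there, Lyz2 by the widest margin (6.86, at most 3.82 elsewhere), while Cd68 and Adgre1 were not raised. BALB/c ROR- replicate 2 was the ROR- array with the highest type 17 mean, 5.51, with no other ROR- array above 4.22. Several results that rest on these arrays, foremost those of Zbtb16, are given with and without them. In RNA from a pool of cells, fewer cells that use a gene and less RNA of it per cell cannot be told apart.

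Zbtb16 was well above the dim level on all 12 arrays. That level, 3.45 log2 units, is the 30th percentile of the named probe sets and is no measured background. BALB/c ROR- cells read 9.27, 9.14 and 8.89 (mean 9.10 ± 0.19 log2 units, SD, n = 3), and BALB/c iNKT17 cells read 8.89, 9.01 and 9.07 (8.99 ± 0.09, n = 3). These 6 BALB/c arrays overlapped and held the highest levels of the series. B6 ROR- cells read 8.66 and 8.61 (8.63 ± 0.03, n = 2), below every BALB/c array. B6 iNKT17 cells read 7.89 and 8.13 (8.01 ± 0.16, n = 2), below both B6 ROR- arrays, and B6 gamma-delta 17 cells read 7.95 and 7.34 (7.64 ± 0.43, n = 2). The higher gamma-delta 17 reading lay between those of the B6 iNKT17 arrays, so these groups overlapped. It was the reading of replicate 1, the array with raised neutrophil markers, Lyz2, Cd8a, Cd8b1 and Dntt. The part of the cells behind those transcripts in its Zbtb16 level was not tested. The order of the group means was therefore BALB/c ROR-, BALB/c iNKT17, B6 ROR-, B6 iNKT17 and B6 gamma-delta 17. The first and second of these, and the last pair, did not separate array by array, whereas both other steps did. The within-group SD of Zbtb16, 0.21, was slightly above the median of 0.18 over all genes tested.

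**Figure D1:**
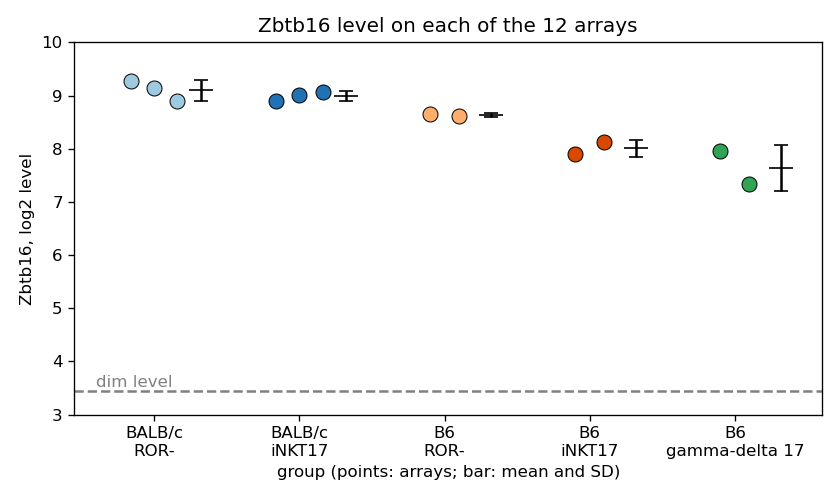
Zbtb16 level in log2 units (vertical axis) on each array, by group; points are arrays, and the black bars beside them give the group mean and SD. The 6 BALB/c arrays lie between 8.89 and 9.27, the B6 ROR- arrays at 8.61 and 8.66, and the B6 iNKT17 and gamma-delta 17 arrays between 7.34 and 8.13, all above the dashed dim level of 3.45.

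The strain comparison in iNKT17 cells asked whether the factor differs between B6 and BALB/c cells of the same subset. Zbtb16 was higher in BALB/c iNKT17 cells by 0.98 ± 0.18 log2 units (SE, 95% confidence interval 0.59 to 1.37; adjusted p = 0.019 in limma, a linear model fitted to all genes), a 1.97-fold difference with an interval of 1.5-fold to 2.59-fold. All 3 BALB/c arrays lay above both B6 arrays. Of the 16667 genes tested, 1.48% passed the same threshold, an adjusted p of 0.05 over all genes, in this comparison. The call was lost when 1 of 4 arrays was left out: the adjusted p rose to 0.0521 without BALB/c iNKT17 replicate 1, 0.0848 without BALB/c iNKT17 replicate 3, 0.134 without B6 iNKT17 replicate 1 and 0.0966 without B6 iNKT17 replicate 2, while the difference stayed between 0.87 and 1.10. It held without any 1 of the other 8 arrays.

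In ROR- cells the strain difference was smaller. Zbtb16 was 0.46 ± 0.18 log2 units higher in BALB/c (SE, 95% interval 0.07 to 0.86), 1.38-fold, and again no B6 array reached a BALB/c array. With an unadjusted limma p of 0.0243 and an adjusted p of 0.325 it did not pass the threshold, which 1.22% of genes passed. Without BALB/c ROR- replicate 2 and B6 gamma-delta 17 replicate 1, the difference was 0.44 with a limma adjusted p of 0.348.

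Averaged over both cell types, Zbtb16 was higher in BALB/c by 0.72 ± 0.13 log2 units (SE, 95% interval 0.45 to 1.0; limma adjusted p = 0.00787), or 1.65-fold. In this comparison 4.58% of genes passed. An exact two-sided permutation test of the strain labels within each cell type gave p = 0.01, the smallest its 100 arrangements allow. The call held under all 22 other settings of the limma fit, each array left out in turn included, with differences between 0.65 and 0.78 and adjusted p between 0.00254 and 0.0456. The strain differences of the 2 cell types were also set against each other. The iNKT17 difference exceeded the ROR- difference by 0.52 ± 0.25 log2 units (SE, 95% interval -0.04 to 1.07; unadjusted p = 0.0651, limma adjusted p = 0.999), so a larger strain effect in iNKT17 cells was not shown. That interaction passed in 0.084% of genes.

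**Figure D2:**
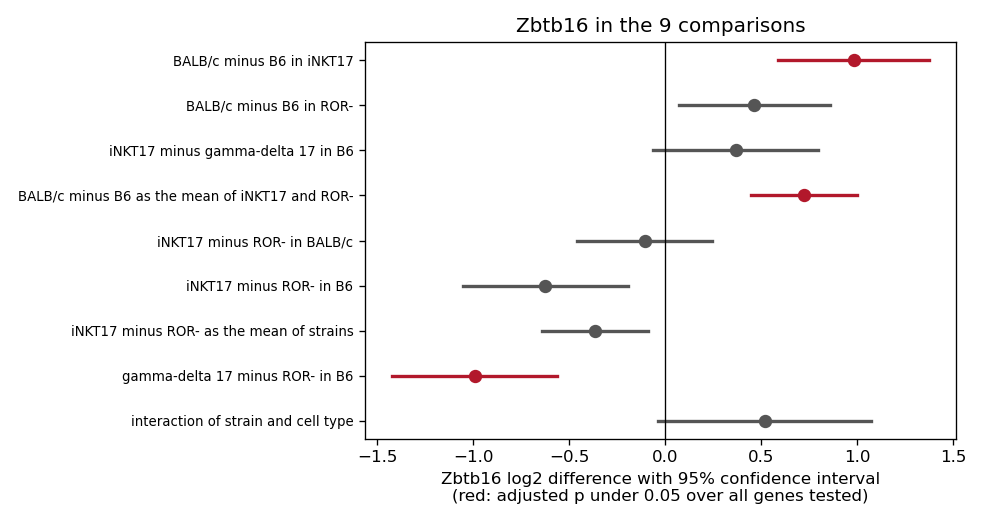
Zbtb16 log2 difference (horizontal axis) with its 95% confidence interval in each of the 9 comparisons; red marks an adjusted p under 0.05. The strain difference in iNKT17 cells (0.98), the mean strain difference (0.72) and gamma-delta 17 minus ROR- in B6 (-0.99) passed, and the other 6 did not.

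Both lineages of interleukin 17 producers were compared in B6 mice. Zbtb16 was 0.37 ± 0.20 log2 units higher in iNKT17 than in gamma-delta 17 cells (SE, 95% interval -0.06 to 0.80; limma adjusted p = 0.65), a difference within the spread of the arrays. The interval leaves room for a level up to 1.74-fold higher in iNKT17 cells and for 1.04-fold higher in gamma-delta 17 cells. Only 0.168% of genes passed in this comparison, 28 of 16667. The estimate moved with the gamma-delta 17 array used. It was 0.67 without replicate 1, the array with neutrophil markers, and 0.06 without replicate 2, and neither passed. The lowest adjusted p over the 22 other settings was 0.366.

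Against ROR- cells of the same strain, B6 gamma-delta 17 cells had less Zbtb16. The difference was -0.99 ± 0.20 log2 units (SE, 95% interval -1.42 to -0.56; limma adjusted p = 0.00996), a 1.99-fold lower level, and both gamma-delta 17 arrays lay below both ROR- arrays. In this comparison 6.02% of genes passed. Without gamma-delta 17 replicate 1 the difference was -1.30 (limma adjusted p = 0.00238). Without gamma-delta 17 replicate 2 it was -0.69 and its adjusted p 0.0856. The call also ended without replicate 1 (adjusted p 0.0759) or replicate 2 (0.0606) of the B6 ROR- cells, and in a limma fit of only the groups compared (0.0596).

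Within BALB/c, iNKT17 and ROR- cells had overlapping Zbtb16 levels. The difference was -0.11 ± 0.16 log2 units (SE, 95% interval -0.46 to 0.24; limma adjusted p = 0.801), where 6.97% of genes passed. Within B6 the iNKT17 arrays lay below both ROR- arrays, by -0.62 ± 0.20 (SE, 95% interval -1.05 to -0.19; unadjusted p = 0.00831, limma adjusted p = 0.103), where 5.99% of genes passed. This B6 difference passed only without B6 gamma-delta 17 replicate 1 or replicate 2, neither of which is in the comparison (limma adjusted p = 0.0408 in both cases). As the mean of strains, iNKT17 minus ROR- was -0.37 ± 0.13 (limma adjusted p = 0.0904), against 12.3% of genes past the threshold. The exact two-sided permutation test within strains gave p = 0.0833, where its 120 arrangements allow 0.0167 at the lowest. This mean difference passed under some settings, for example at an adjusted p of 0.0375 in a limma fit of only the groups it compares, and its estimate stayed between -0.42 and -0.31.

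Zbtb16 belongs to the BTB zinc finger family, which also holds the helper T cell factors Bcl6 and Zbtb7b (ThPOK). Of 45 relatives listed, 42 were tested. None of them passed the limma threshold in the strain comparison of iNKT17 cells, in that of ROR- cells, or in iNKT17 against gamma-delta 17 cells, where unadjusted p was under 0.05 for 2, 2 and 5 relatives. Over all genes tested 1.48%, 1.22% and 0.168% passed there, so 0 of 42 relatives is near that share. The counts in these 3 comparisons were also 0 under each of the 22 other settings. Zbtb16 had a larger strain difference in iNKT17 cells than any of the 42, whose range was -0.43 (Zbtb45) to 0.64 (Zbtb20). In ROR- cells 1 relative differed more, Zbtb20, at 0.71 ± 0.28 (limma adjusted p = 0.327). In iNKT17 against gamma-delta 17 cells 5 relatives had larger absolute differences than Zbtb16. The median strain difference of the relatives in iNKT17 cells was 0.11, beside 0.03 for all genes tested.

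Where ROR- cells were compared with the type 17 groups, relatives passed at about the rate of all genes or below it. In gamma-delta 17 against ROR- cells 2 of 42 passed (4.76%, beside 6.02% of all genes tested): Zbtb10 was lower by -1.53 ± 0.33 and Zbtb7c higher by 0.63 ± 0.15 (limma adjusted p 0.0174 and 0.0343). Zbtb10 was the only relative with a larger absolute difference than Zbtb16 in that comparison. These calls were named after their values were seen; Zbtb10 was lost without B6 gamma-delta 17 replicate 1 (-1.31, adjusted p 0.128) or either B6 ROR- array (-1.70 at 0.0577 without replicate 1, -1.36 at 0.139 without replicate 2), and Zbtb7c without any of 6 arrays (adjusted p up to 0.247 without B6 ROR- replicate 2). In iNKT17 against ROR- cells as the mean of strains 5 of 42 relatives passed (11.9%, beside 12.3% of all genes tested), 2 higher and 3 lower, among them the thymocyte regulator Patz1 at -0.71 ± 0.12 (limma adjusted p = 0.00197) and Zbtb7b at -0.45 ± 0.11 (adjusted p = 0.0203). Zbtb7b was at -0.39 and no longer called when B6 iNKT17 replicate 2 (adjusted p 0.0999) or B6 ROR- replicate 1 (0.106) was left out, and the count fell to 3 without any of 6 arrays, those of BALB/c ROR- replicate 1, BALB/c iNKT17 replicates 1 and 3, B6 ROR- replicates 1 and 2, and B6 iNKT17 replicate 2. Bcl6 and Zbtb32, both regulators of lymphocyte fate, passed in none of the 9 comparisons. Their levels were low, with group means of 4.85 to 5.58 for Bcl6 and 4.78 to 4.89 for Zbtb32, beside 7.64 to 9.10 for Zbtb16.

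**Figure D3:**
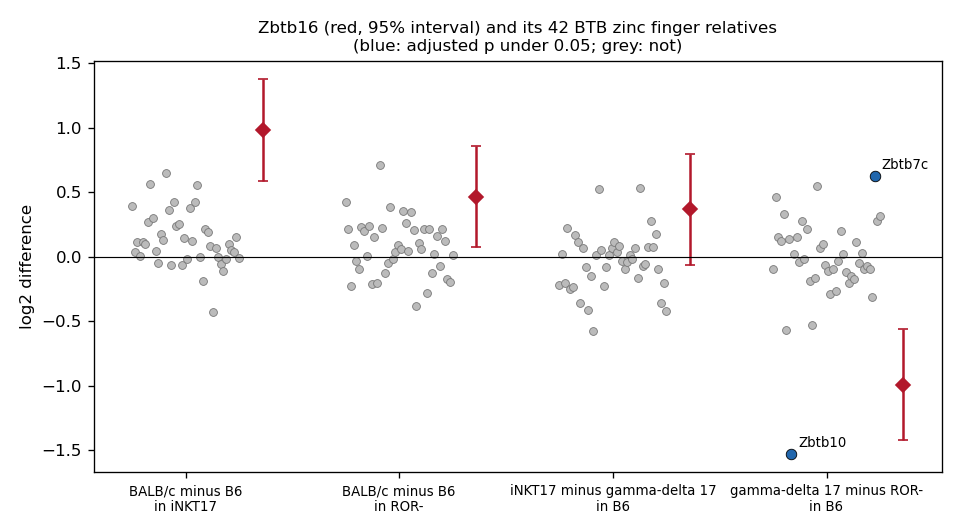
Log2 difference (vertical axis) of Zbtb16 (red diamond with its 95% confidence interval) and of each of its 42 tested relatives (circles, blue where the adjusted p was under 0.05) in 4 comparisons. Zbtb16 lies above every relative in the strain comparison of iNKT17 cells, and in gamma-delta 17 minus ROR- only Zbtb10 lies below it.

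The genes that act before PLZF include the Egr factors that switch on Zbtb16, their corepressor Nab2, and the SLAM receptors with their adaptor Sh2d1a (SAP). Of the 22 tested, 0 passed the limma threshold in either strain comparison or between iNKT17 and gamma-delta 17 cells (unadjusted p under 0.05 for 5, 6 and 4). Those counts of 0 are near the share over all genes tested, 1.48% in iNKT17 cells, 1.22% in ROR- cells and 0.168% between the lineages. In ROR- cells 1 passed without BALB/c ROR- replicate 1, BALB/c iNKT17 replicate 2 or either gamma-delta 17 array, and in iNKT17 against gamma-delta 17 cells 1 passed without gamma-delta 17 replicate 1. Egr2 read 6.51 ± 0.39 in BALB/c ROR- and 6.51 ± 0.02 in B6 ROR- cells, and 5.78 ± 0.28 in BALB/c iNKT17 and 5.88 ± 0.20 in B6 iNKT17 cells; in each cell type the strain means lay within their SDs. Egr2 fell in iNKT17 against ROR- cells by -0.68 ± 0.15 as the mean of strains (SE; limma adjusted p = 0.0125), a call that needed replicate 1 of B6 ROR- and of B6 iNKT17 cells (adjusted p 0.0516 and 0.0613 without them). In that comparison 12 of 22 passed (54.5%, beside 12.3% of all genes tested), 2 higher and 10 lower. The median was -0.29, beside -0.0035 for all genes. As the mean strain difference of both cell types 3 of 22 passed (13.6%, beside 4.58% of all genes tested). Slamf1 (0.75 ± 0.17) and Kdm6b (0.70 ± 0.17) were higher in BALB/c and Egr3 (-0.62 ± 0.15) lower (limma adjusted p 0.0286, 0.0414 and 0.0443). That count moved under other settings.

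Upstream genes passed also where Zbtb16 did not. In BALB/c iNKT17 against ROR- cells, with Zbtb16 at -0.11, 5 of the 22 fell and 2 rose. That was 31.8% called, beside 6.97% of all genes tested, with a median of -0.36. In gamma-delta 17 against ROR- cells, where Zbtb16 was lower, 9 of the 22 upstream genes fell and 0 rose (40.9% called, beside 6.02% of all genes tested, of which 3.41% fell), with a median of -0.43 beside 0.01 for all genes. Without B6 ROR- replicate 1 the count was 5. Chosen after their values were seen, Egr3 fell by 2.09 ± 0.24 log2 units, Nab2 by 1.59 ± 0.14 and Sh2d1a by 2.52 ± 0.31 (limma adjusted p from 4.84e-05 to 0.000438). With each array left out in turn, Egr3 ran from -2.20 to -1.98, Nab2 from -1.66 to -1.52 and Sh2d1a from -2.98 to -2.06. Gata3, an upstream gene that takes part early in the T cell lineage and in type 2 responses, most resembled Zbtb16 in level among the anchor genes named by rule. It fell by 1.33 ± 0.19 in gamma-delta 17 cells (limma adjusted p = 0.00136) and by 0.85 ± 0.19 in B6 iNKT17 cells against B6 ROR- cells (adjusted p = 0.0218). The latter call ended when replicate 1 of the B6 ROR- cells (adjusted p 0.221) or either B6 iNKT17 array (0.082 without replicate 1, 0.151 without replicate 2) was left out. In gamma-delta 17 against ROR- cells Gata3 ran from -1.51 to -1.15 over the arrays left out. Both Gata3 comparisons share the B6 ROR- arrays.

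Over the 12 arrays Gata3 had a Pearson r of 0.86 with Zbtb16 (79th of 16666 genes), and 0.72 over the 10 arrays outside the gamma-delta 17 group. Its group means were 8.86 ± 0.33 (BALB/c ROR-), 8.54 ± 0.08 (BALB/c iNKT17), 8.91 ± 0.25 (B6 ROR-), 8.05 ± 0.08 (B6 iNKT17) and 7.58 ± 0.02 (B6 gamma-delta 17). Within B6 the order was that of Zbtb16, but in ROR- cells the strain means of Gata3 lay within their SDs. Its strain difference in iNKT17 cells, 0.48 ± 0.18, did not pass (limma adjusted p = 0.26). Other anchors followed Zbtb16 less closely, as a description over the same 12 arrays. Pearson r was 0.54 for Cul3, 0.51 for Egr2 and 0.47 for the type 1 factor Tbx21. It was 0.41 for the naive T cell factor Bach2 and -0.36 for Maf, a factor of interleukin 17 producers. Tbx21 and Maf parted ROR- from iNKT17 cells in both strains: Tbx21 fell by 2.78 ± 0.17 and Maf rose by 1.84 ± 0.26 as the mean of strains (limma adjusted p = 8.16e-07 and 0.00057), whereas Zbtb16 did not pass there. Between strains 1.48% of all genes tested passed in iNKT17 cells and 1.22% in ROR- cells, and 0.168% passed between iNKT17 and gamma-delta 17 cells. Near those shares, 0 of the 24 lineage factors tested passed in these comparisons (unadjusted p under 0.05 in limma for 5, 1 and 6). A single array left out brought 1 of them past the threshold in each: either gamma-delta 17 array for the first and the last, and BALB/c iNKT17 replicate 2 for ROR- cells.

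**Figure D4:**
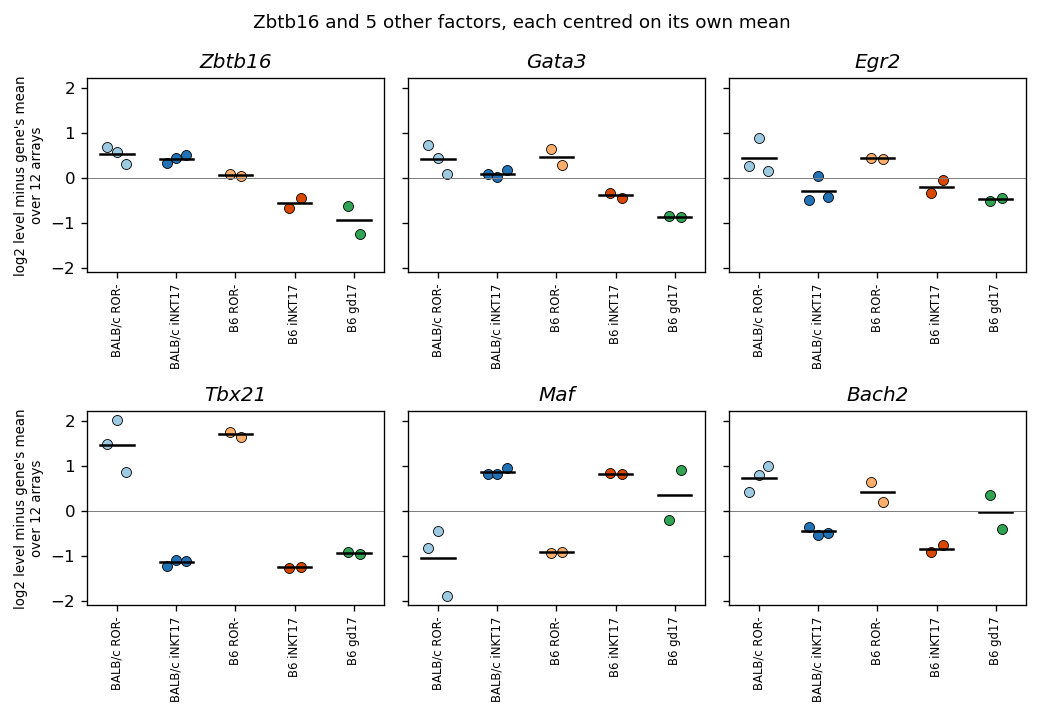
Log2 level minus the gene's own mean over the 12 arrays (vertical axis) for Zbtb16 and 5 other transcription factors, by group; points are arrays and bars are group means, and gd17 stands for gamma-delta 17. In B6 the group means of Zbtb16 and Gata3 stand in the order ROR-, iNKT17, gamma-delta 17, with the Zbtb16 arrays of the last pair overlapping, while Tbx21 and Maf separate ROR- from the other groups in both strains.

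PLZF acts with corepressors and Cul3, so their levels were measured beside it. Cul3 stayed between 9.73 and 10.11 on all 12 arrays. Of 14 partners tested, 1 passed in ROR- cells between strains: the deacetylase gene Hdac1, lower in BALB/c by -0.98 ± 0.19 (limma adjusted p = 0.0331), opposite in sign to Zbtb16. That call was lost without either B6 ROR- array, replicate 2 of BALB/c ROR- cells, or replicate 1 or 3 of BALB/c iNKT17 cells (adjusted p between 0.0529 and 0.208). As the mean of both cell types Hdac1 was lower in BALB/c by -0.89 ± 0.14 (adjusted p = 0.00317) under every setting. In iNKT17 cells alone 0 of 14 partners passed (4 at an unadjusted p under 0.05), but 2 did without BALB/c ROR- replicate 3, and 1 did when replicate 1 of BALB/c ROR- or replicate 2 of BALB/c iNKT17 cells was left out. Between iNKT17 and gamma-delta 17 cells 0 passed (1 unadjusted). Over all genes tested 1.22% passed between strains in ROR- cells, 1.48% in iNKT17 cells and 0.168% between the lineages. A count of 0 of 14 partners is near those shares.

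Genes of the innate-like effector state, type 17 genes among them, were compared in the same way. Over all genes tested 1.48% passed between strains in iNKT17 cells, 1.22% in ROR- cells and 0.168% between iNKT17 and gamma-delta 17 cells. Of the 23 effector genes tested, 0 passed between strains in iNKT17 cells (5 at an unadjusted limma p under 0.05), near the share over all genes, and 2 without BALB/c iNKT17 replicate 2. In ROR- cells 1 passed (2 without BALB/c ROR- replicate 1 or 2), the receptor gene Klrb1c, lower in BALB/c by -2.25 ± 0.33 (adjusted p = 0.00561), a call that ended when B6 ROR- replicate 1 was left out (-2.02, adjusted p 0.0847). Between iNKT17 and gamma-delta 17 cells 1 passed (2 without gamma-delta 17 replicate 1), the cytokine gene Il17a, at -3.38 ± 0.47 (adjusted p = 0.018), while Zbtb16 did not pass. It was lost without B6 gamma-delta 17 replicate 2 (-3.01, adjusted p 0.0654), B6 iNKT17 replicate 1 (-3.68, 0.065) or replicate 2 (-3.07, 0.277). In iNKT17 against ROR- cells as the mean of strains 17 of 23 passed (73.9%, beside 12.3% of all genes tested). Of these, 9 were higher and 8 lower, and the list's median was 0.14, beside -0.0035 for all genes. The 9 include Il23r, Il17a, Il1r1 and Ccr6, the genes used above to check the labels. This share was therefore partly set by how the groups are defined, and it is no result about PLZF. As the mean strain difference of both cell types 2 of 23 passed (8.7%, beside 4.58% of all genes tested), Klrb1c and Cd160, both lower in BALB/c. That count moved under other settings.

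Genes of naive T cells are known to be low in cells that depend on PLZF. Of 15 tested, 11 fell and 0 rose in iNKT17 against ROR- cells as the mean of strains (73.3% called, beside 12.3% of all genes tested, of which 5.81% fell), with a median of -1.27 beside -0.0035 for all genes, although Zbtb16 was not higher there. Between strains in iNKT17 cells 1 of 15 passed (6.67%, beside 1.48% of all genes tested). It was the chromatin organiser Satb1, higher in BALB/c, as Zbtb16 was, by 1.67 ± 0.29 (limma adjusted p = 0.0149). Leaving out BALB/c iNKT17 replicate 1 (adjusted p 0.0625) or 3 (0.0656) ended this call, as did leaving out B6 iNKT17 replicate 1 (0.118) or 2 (0.0928), and the count was 4 without either gamma-delta 17 array. As the mean strain difference of both cell types 3 of 15 passed (20%, beside 4.58% of all genes tested), a count that moved under other settings. Ccr7 (0.81 ± 0.17) and Satb1 (1.02 ± 0.21) were higher in BALB/c and Ly6c2 (-2.43 ± 0.52) lower. Between iNKT17 and gamma-delta 17 cells the egress receptor S1pr1 (-2.98 ± 0.42) and the homing receptor Ccr9 (-1.38 ± 0.22) were lower in iNKT17 cells (adjusted p 0.0192 and 0.0322). S1pr1 lost its call without gamma-delta 17 replicate 1 (-2.43, adjusted p 0.0646) or either B6 iNKT17 array, and Ccr9 without any of 7 arrays, the highest adjusted p being 0.411 without B6 iNKT17 replicate 2. Without gamma-delta 17 replicate 2, 4 of the 15 passed.

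The genes whose levels ran most like those of Zbtb16 over the 12 arrays were Lrmp, Ccdc28a, Leprot, Map2k6 and Dnajb6, with Pearson r from 0.94 to 0.97. In all, 16 of 16666 genes had r above 0.9 and 17 had r below -0.9. The arrays share strain and cell type, so a high r is a description of the pattern and carries no p. By Spearman correlation 1 of the 5 stayed among the 5 highest, and by the r of the 5 group means 0 did. Lrmp, a membrane protein gene of lymphocytes, came nearest (r = 0.97). It read 8.03 ± 0.18 in BALB/c ROR-, 7.72 ± 0.16 in BALB/c iNKT17, 7.60 ± 0.11 in B6 ROR-, 6.51 and 6.50 on the B6 iNKT17 arrays, and 5.76 and 5.11 on gamma-delta 17 replicates 1 and 2. The group order was that of Zbtb16, and replicate 1 of gamma-delta 17 was again the higher of the pair. After group means were removed, Lrmp and Zbtb16 still had r = 0.93 over the 12 arrays, against 0.38 to 0.75 for the other 4. Lrmp was picked by its r over these same arrays, gamma-delta 17 replicate 1 included, so this value is no independent result. Over the 10 arrays outside the gamma-delta 17 group, with group means kept, its r was 0.96.

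Lrmp was higher in BALB/c iNKT17 cells by 1.21 ± 0.19 log2 units (SE; limma adjusted p = 0.00715), a call lost without B6 iNKT17 replicate 1 (adjusted p 0.0628) or 2 (0.0893). It fell by 2.17 ± 0.20 in gamma-delta 17 against ROR- cells (adjusted p = 6.10e-05), and ran from -2.50 to -1.85 over the arrays left out. Between iNKT17 and gamma-delta 17 cells it differed by 1.07 ± 0.20 (adjusted p = 0.0823), and by 1.40 without gamma-delta 17 replicate 1 (adjusted p = 0.0131). Dnajb6, a co-chaperone gene, shared the pattern at a far smaller scale, with group means only 0.33 log2 units apart at the widest. The most opposite genes were Arhgap31, the actin-binding protein gene Tagln2, and Crybg3, with r of -0.96 each. Arhgap31 was lower in BALB/c than in B6 by -1.89 ± 0.22 in iNKT17 cells (limma adjusted p = 0.00087), under every setting. In ROR- cells it was lower by -1.21 ± 0.22 (adjusted p = 0.0199), a call that ended when either B6 ROR- array was left out (adjusted p 0.171 without replicate 1, 0.164 without replicate 2).

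**Figure D5:**
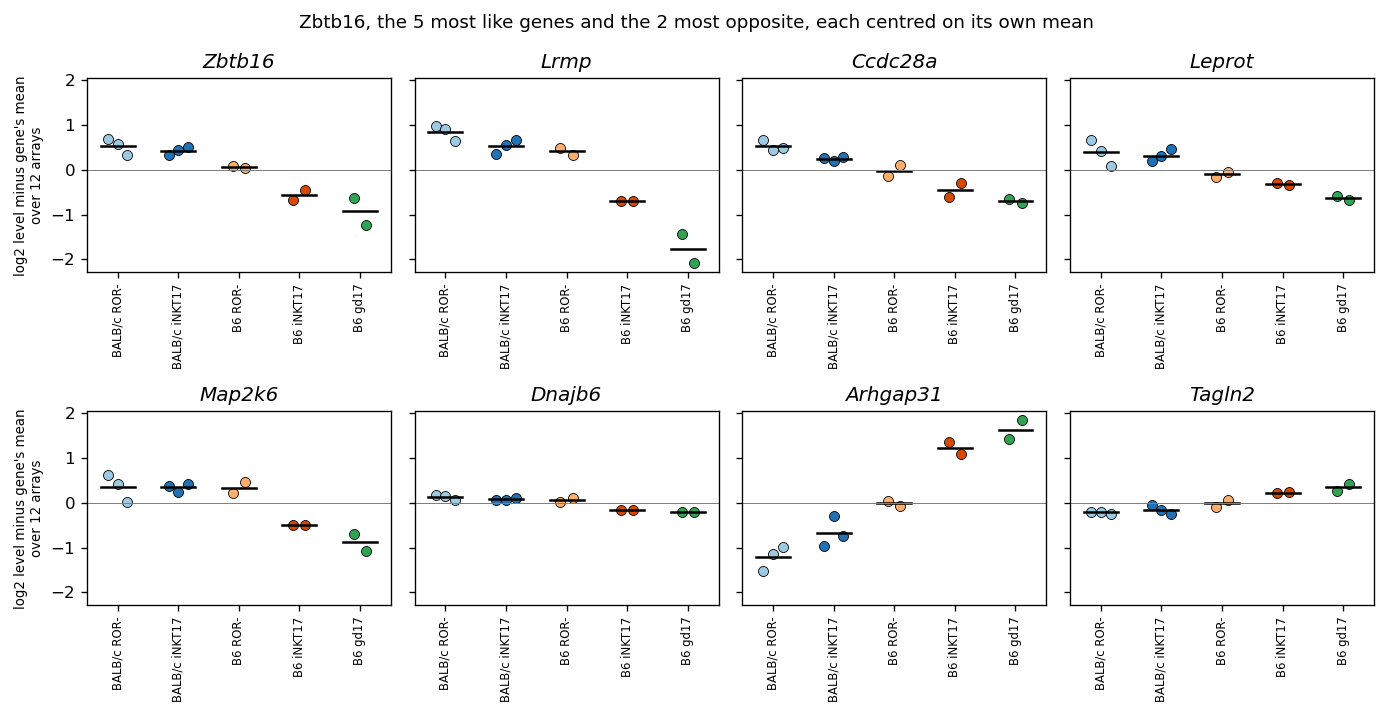
Log2 level minus the gene's own mean over the 12 arrays (vertical axis) for Zbtb16, the 5 genes most like it by Pearson r and 2 of the 3 most opposite genes, by group; points are arrays, bars are group means, and gd17 stands for gamma-delta 17. Lrmp repeats the order of the groups over a wider range than Zbtb16, and Arhgap31 runs the opposite way.

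The genes beside Zbtb16 on its chromosome were taken from RefSeq's annotation of GRCm38.p6, used here only for gene order. The nearest named genes were Nnmt on one side and the serotonin receptor gene Htr3a on the other. Of 10 neighbours, 5 on each side, 8 were tested, and Nnmt and Gm8884 never rose above the dim level. None of the 8 passed the limma threshold in the strain comparison of iNKT17 cells, where Zbtb16 did, or in that of ROR- cells. None passed between iNKT17 and gamma-delta 17 cells either (unadjusted p under 0.05 for 1, 2 and 1, in that order). Over all genes tested 1.48%, 1.22% and 0.168% passed there, so 0 of 8 is near that share and does not set Zbtb16 apart from its neighbours. Htr3a, Htr3b and Tmprss5 were low, with every group mean below the lowest array median, 4.10. A difference could hardly have been called in them. In iNKT17 against ROR- cells 2 of the 8 passed in BALB/c (beside 6.97% of all genes tested), and the same pair as the mean of strains (beside 12.3%). Rexo2, a gene for an exonuclease of short RNA, was higher in iNKT17 cells by 0.56 ± 0.15 in BALB/c (limma adjusted p = 0.0476, lost without any of 11 arrays and under 4 other settings) and by 0.55 ± 0.12 as the mean of strains (0.0099, lost without B6 ROR- replicate 1 at 0.0502). The ubiquitin protease gene Usp28 was lower there by -0.98 ± 0.17 in BALB/c (adjusted p = 0.00463) and by -0.55 ± 0.14 as the mean of strains (0.0214, lost at 0.119 without B6 ROR- replicate 1 and at 0.0849 without B6 iNKT17 replicate 1). In the strain comparison of ROR- cells Usp28 was 0.85 ± 0.20 higher in BALB/c (adjusted p = 0.0693), and it passed without either B6 iNKT17 array (adjusted p = 0.024). Htr3a stayed between 3.86 and 4.2 on all arrays. The kinetochore gene Zw10 ran opposite to Zbtb16 between strains, at -0.56 ± 0.14 as the mean of both cell types (adjusted p = 0.0493), a call lost without any of 8 arrays, with the highest adjusted p, 0.247, without B6 iNKT17 replicate 2.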

How the data were processed

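RNA of 12 mouse samples was measured on Affymetrix whole-transcript arrays as biotinylated cRNA, per the labels' protocols. The authors deposited 1 table of log2 levels for 41345 probe sets. They used oligo, an R package for arrays, per the submitters' processing notes. Its version, the normalization and the log base are given in none of the sources used here, so log2 was taken from the range of the values. Array medians lay between 4.10 and 4.30. The number of arrays limits the precision.

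Gene symbols came from the platform annotation, which can be old, and of the probe sets 23521 had 1 symbol, 1814 several and 16010 none. Whether the probe sets match the sequences of both strains equally was not tested, which limits every strain difference. For genes with several probe sets the brightest was kept. Genes with at least 2 arrays above the 30th percentile (3.45) were tested, 16667 in all. In R 4.3.3, lmFit and eBayes of limma 3.58.1 fitted a group-means model to the 12 arrays, with Benjamini-Hochberg adjustment over all genes tested, a threshold of 0.05, and 7 residual and 4.50 prior degrees of freedom. The code was tested on simulated data. Likeness to Zbtb16 is Pearson r over the 12 arrays.

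Zbtb16, the gene lists and the comparisons were chosen with earlier results of these data known. Genes were named by rule: a set of anchor factors, at most 5 called members per list in the strain comparisons and in iNKT17 against gamma-delta 17 cells, the 5 most like and 3 most opposite genes, and 5 neighbours on each side. Genes of the family and upstream lists named for other comparisons were chosen after their values were seen. Other settings (centring, quantile normalization, dim filter, probe set choice, prior, array weights, replicate block, samples in the fit, each array left out) are given in the closing section. Sequences of Zbtb16 were not used here.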

Additional observations from a re-analysis of the deposited data

How the results depend on the processing

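Zbtb16 kept its direction in all 9 comparisons under each of 22 other settings of the limma fit. The strain difference in iNKT17 cells kept its call under all settings that kept all arrays, and over the arrays left out in turn it ran from 0.87 to 1.10, with the call lost without BALB/c iNKT17 replicate 1 or 3 or either B6 iNKT17 array. Gamma-delta 17 minus ROR- ran from -1.30 to -0.69 over the arrays left out, and in a fit of only the groups compared it was -0.99 with an adjusted p of 0.0596. The mean iNKT17 minus ROR- difference passed when arrays were quantile-normalized anew (-0.41, adjusted p 0.0491), with array weights (-0.39, adjusted p 0.0454), in a fit of only the groups compared (-0.37, adjusted p 0.0375) and without either gamma-delta 17 array (-0.37, adjusted p 0.0375), and ran from -0.42 to -0.31 over the arrays left out. In B6 alone it stood between -0.74 and -0.51 over the arrays left out. Why these calls changed was not tested. Of the 5 genes most like Zbtb16, 1 stayed among the 5 highest by Spearman correlation and 0 by Pearson r over the 5 group means.

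Over all settings the counts of genes past the threshold ran from 77 to 549 (247 in the fit reported) for strain in iNKT17 cells, 68 to 259 (203) for strain in ROR- cells, 2 to 63 (28) for iNKT17 against gamma-delta 17, 288 to 1159 (764) for the mean strain difference, 530 to 1151 (1003) for gamma-delta 17 against ROR-, 1341 to 2345 (2051) for iNKT17 against ROR- as the mean of strains, 492 to 1238 (998) for the same in B6, 742 to 1227 (1161) in BALB/c and 0 to 21 (14) for the interaction. Among single genes, a fit of only the groups compared ended the calls of Hdac1 and Arhgap31 between strains in ROR- cells (adjusted p 0.185 and 0.0503), of Il17a, S1pr1 and Ccr9 in iNKT17 against gamma-delta 17 cells (0.089, 0.121 and 0.217) and of Zbtb7c in gamma-delta 17 against ROR- cells (0.102). Zbtb7c also missed after centring (0.0609), Zw10 without the dim filter (0.0555), and Rexo2 in BALB/c after quantile normalization, without the dim filter, and in that fit of fewer groups (0.0624, 0.0532 and 0.124). Centring each array on its median moved the median of all genes by 0.12 log2 units in iNKT17 against gamma-delta 17; Zbtb16 there was 0.48 after centring.

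Replicate numbers showed no pairing of the arrays on average: deviations from the group means had a mean r of 0.02 between same-numbered arrays (21 pairs, -0.46 to 0.47) and -0.01 between the others (36 pairs). In groups of 2 arrays these deviations mirror each other, so the means cannot exclude pairing between particular groups. With the number as a replicate block Zbtb16 was 1.01 higher in BALB/c iNKT17 cells (limma adjusted p 0.0485), 0.75 as the mean of both cell types (adjusted p 0.0284) and -0.99 in gamma-delta 17 against ROR- cells (adjusted p 0.0208), so it changed no Zbtb16 call; it ended the calls of Hdac1 in ROR- cells (0.0918), Zbtb7c (0.0564) and Rexo2 in BALB/c (0.0706), and the count for the mean strain difference was 371 with the block. A setting chosen after seeing the data left out B6 gamma-delta 17 replicate 1 and BALB/c ROR- replicate 2 together: the strain difference in iNKT17 cells was 0.98 (adjusted p 0.0126), iNKT17 against gamma-delta 17 was 0.67 (adjusted p 0.463), gamma-delta 17 against ROR- was -1.30 (adjusted p 0.00459), and no Zbtb16 call changed. With 2 or 3 arrays a group, differences such as that in ROR- cells cannot be called or set aside.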
